A study of Mus musculus with 44 samples.

Results

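The cornified envelope genes of mouse back skin were taken as all protein-coding genes whose symbol starts with Lce or Sprr, together with Flg, Flg2, Hrnr, Rptn, Ivl and Lor, and were followed through bleomycin injection and recovery. The mouse annotation (GENCODE, GRCm38) held 42 such genes, all on chromosome 3 within 1319 kb, from 92080271 to 93399442. Of these, 41 had a row among the 43411 genes of the table, Rptn was not analysed here, and 35 had a mean normalized count above 3 and were tested with the 17037 genes that passed this filter. The 6 members under the filter were Flg, Sprr3, Sprr2b, Sprr2i, Sprr2j-ps and Sprr2k.

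The study injected wild-type female C57Bl/6 mice, 8 weeks old at the start, under the skin of the back every day with 100 µL of saline or of bleomycin at 1 U/mL per the labels (one legend of the study gives another concentration), a mouse model of skin fibrosis. RNA from the injected skin was sequenced from 10 saline mice, from 10 mice at 2 weeks and 10 at 4 weeks of injection with bleomycin, and, once a 4-week course had ended, from 6 mice at 6 weeks and 8 at 10 weeks of recovery. The values are read counts per gene divided by 1 size factor per mouse ("normalized counts"), and they rest on 8509094 to 15285577 reads a mouse (median 11310008). The labels do not give the age at which the saline mice were harvested, so age and recovery cannot be told apart where recovery groups differ from saline. In whole skin, fewer keratinocytes and less RNA per keratinocyte cannot be told apart either. Saline mouse 1 and mouse 2 of the 2-week bleomycin group had the lowest correlations with the rest of their groups (0.942 and 0.938, next lowest 0.947), and the counts below are also given without them.

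The cornified envelope is the layer of cross-linked protein that replaces the plasma membrane of keratinocytes as they die and form the outer skin barrier. Involucrin (Ivl) is laid down early as a scaffold, loricrin (Lor) makes up most of the mass, the small proline-rich proteins (Sprr) act as cross-bridges, the late cornified envelope proteins (Lce) are added last, and transglutaminases join them. Filaggrin (Flg), filaggrin 2 (Flg2) and hornerin (Hrnr) are long repetitive proteins that bundle keratin and are broken down in the outermost cells. Sprr2, Sprr1b and Lce3 genes are low in resting skin and are known to be induced when the barrier is injured or inflamed, together with the stress keratins Krt6 and Krt16.

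The genes differ in the sequence before their start sites, so 8 upstream stretches of 250 bases are shown (RefSeq, GRCm38.p6, 5′ to 3′ on the strand of the gene, ending at the base before the start). Capitals mark the letters TGANTCA, the core bound by Fos and Jun proteins and its own reverse complement, and TATAAA, a form of the TATA box. Variants of these letters were not searched or marked. Sprr2d and Sprr2e are shown because they rose with bleomycin and hold both sets of letters at the same distances, 193 and 29 bases before the start, in stretches identical at 220 of 250 positions. In some other Sprr2 genes the letters and the calls did not go together (below), and Sprr2e passed the filter only through the bleomycin groups. Sprr1b rose at 2 weeks, Sprr1a, Ivl and Lor hold the same letters and did not rise, and Lce1g and Lce3f rose with neither in these exact letters.
Sprr2d, chr3:92338890-92339139, plus strand: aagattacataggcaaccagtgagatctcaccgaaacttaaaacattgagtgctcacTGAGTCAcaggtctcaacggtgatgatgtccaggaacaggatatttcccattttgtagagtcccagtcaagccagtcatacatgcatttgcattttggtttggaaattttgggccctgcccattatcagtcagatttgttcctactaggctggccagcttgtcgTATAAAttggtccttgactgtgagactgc
Sprr2e, chr3:92351893-92352142, plus strand: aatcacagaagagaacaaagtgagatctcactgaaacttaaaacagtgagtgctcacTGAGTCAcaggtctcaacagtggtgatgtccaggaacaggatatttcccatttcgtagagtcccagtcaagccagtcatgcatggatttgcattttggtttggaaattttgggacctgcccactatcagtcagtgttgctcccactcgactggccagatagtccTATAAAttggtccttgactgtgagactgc
Sprr1b, chr3:92438780-92439029, minus strand: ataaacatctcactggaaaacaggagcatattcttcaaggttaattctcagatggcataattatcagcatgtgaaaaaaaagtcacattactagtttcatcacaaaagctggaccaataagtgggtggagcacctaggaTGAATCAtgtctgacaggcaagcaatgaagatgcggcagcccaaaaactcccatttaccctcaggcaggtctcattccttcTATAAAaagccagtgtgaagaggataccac
Sprr1a, chr3:92485882-92486131, minus strand: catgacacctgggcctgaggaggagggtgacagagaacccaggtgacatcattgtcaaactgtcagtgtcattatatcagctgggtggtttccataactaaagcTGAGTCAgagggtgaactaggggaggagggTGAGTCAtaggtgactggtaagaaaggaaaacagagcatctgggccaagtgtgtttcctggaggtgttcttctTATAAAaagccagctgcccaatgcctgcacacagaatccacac
Ivl, chr3:92573736-92573985, minus strand: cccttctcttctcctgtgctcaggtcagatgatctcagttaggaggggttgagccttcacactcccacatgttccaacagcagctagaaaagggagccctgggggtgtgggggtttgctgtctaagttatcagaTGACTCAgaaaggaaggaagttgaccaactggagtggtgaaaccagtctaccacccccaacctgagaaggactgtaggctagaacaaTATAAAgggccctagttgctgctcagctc
Lor, chr3:92083143-92083392, minus strand: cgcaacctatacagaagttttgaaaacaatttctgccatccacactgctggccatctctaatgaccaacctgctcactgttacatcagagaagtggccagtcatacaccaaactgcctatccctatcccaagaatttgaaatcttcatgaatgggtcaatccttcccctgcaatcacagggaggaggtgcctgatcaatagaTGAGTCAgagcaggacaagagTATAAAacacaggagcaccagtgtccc
Lce1g, chr3:92752339-92752588, minus strand: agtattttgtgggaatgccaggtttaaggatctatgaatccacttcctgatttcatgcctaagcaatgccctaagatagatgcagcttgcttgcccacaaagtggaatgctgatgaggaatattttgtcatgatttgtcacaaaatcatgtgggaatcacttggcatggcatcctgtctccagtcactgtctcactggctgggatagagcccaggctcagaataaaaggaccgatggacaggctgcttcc
Lce3f, chr3:92991967-92992216, plus strand: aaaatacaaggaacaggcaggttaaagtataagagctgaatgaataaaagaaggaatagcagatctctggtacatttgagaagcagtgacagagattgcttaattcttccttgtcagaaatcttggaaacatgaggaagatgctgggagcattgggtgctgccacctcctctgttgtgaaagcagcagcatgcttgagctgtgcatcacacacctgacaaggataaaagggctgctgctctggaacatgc

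Windows of 300 bases around the start were at hand for 40 of the 42 members. TGANTCA was found in 35% of them, against 7.81% of all RefSeq promoters of the same length, and TATAAA on either strand in 47.5% against 13.6%. By family, TGANTCA was in 7 of 10 Sprr2 windows and in both Sprr1 windows, and in 0 of 13 Lce1 and 0 of 6 Lce3 windows. The windows of Sprr2a1, Sprr2a2 and Sprr2a3, which were called higher after bleomycin, held neither TGANTCA nor TATAAA. Those of Sprr2a1 and Sprr2a2 end in letters that, in the Sprr2b window, stand just before TATAAA, and that of Sprr2a3 ends earlier. Bases beyond the windows were not searched, so these 3 genes may hold TATAAA there. Sprr2h held both and was not called, but its spread was wide. At 2 weeks 6 of 10 mice stood above every saline mouse and 2 below, so a rise is neither shown nor excluded. These are matches of letters and not measured binding.

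In saline skin the levels of the members differed widely. Per kilobase of all annotated exons of a gene merged, the highest median normalized counts were those of Sprr1a (6646), Lor (5928), Lce1m (5524) and Lce1a1 (3721). The ranges of each of these overlapped that of the next. After 5 further Lce1 genes (3090 to 1247) came Ivl at 1071 and Sprr4 at 900.2, and lower down Flg2 at 269 and Hrnr at 242. Sprr1b stood at 158, Lce3c at 46.9, and Lce3e, among the lowest, at 0.944, with 5 of 10 saline mice at 0. As shares of the summed normalized counts of all members, without regard to length, the 14 Lce1 genes held a median of 37.8% in saline skin, Lor 22.4%, Sprr1 13.2% and Flg2 12.2%, whereas the 11 Sprr2 genes held 1.88% and the 6 Lce3 genes 0.0909%.

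After bleomycin the summed level of the members overlapped that of saline skin, and its make-up differed. The sum had medians of 45130 in saline, 51639 at 2 weeks and 42167 at 4 weeks, with ranges from 36901 to 78954, 28810 to 110213 and 38521 to 54606. The Sprr2 share had a median of 16.5% at 2 weeks (lowest 4.61%, highest 37.4%) and 9.53% at 4 weeks (2.08% to 24.5%), against 0.848% to 12.1% in saline. After 6 and 10 weeks of recovery it stood at 3.36% and 1.24%. Sprr2a2 held most of the Sprr2 sum. Its median was 692 in saline and 7773 at 2 weeks, against 805 and 8481 for the 11 genes together. The Lce3 share was 0.303% and 0.292% at 2 and 4 weeks and 0.0478% and 0.0833% in the recovery groups.

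A gene was called when its fold change passed 1.5 (0.585 on the log2 scale) with an adjusted p (limma, Benjamini-Hochberg over the 17037 genes) below 0.05. At 2 weeks of bleomycin against saline, 18 of the 35 tested members were called, 16 higher and 2 lower, where 16.7% of all tested genes were called, 9.3% higher and 7.43% lower. At 4 weeks, 20 were called, 15 higher and 5 lower, against 17.9% of all genes, 10.5% higher and 7.37% lower. The median log2 fold change over the 35 members was 0.52 at 2 weeks and 0.63 at 4 weeks, and over all tested genes it was 0.0025 and -0.00065. Lce3b, Lce3e, Sprr2e and Sprr2f passed the filter on the mean only through the bleomycin groups (means of 1.28 to 2.39 in saline and at most 1.66 in recovery), so they could hardly pass it without differing. The medians over the 35 members include these 4 genes and are pulled upward by them. Lce3a passed largely through the same groups, with means of 2.64 in saline, 10.8 and 8.94 at 2 and 4 weeks, and 0.88 and 3.42 in recovery. Among the other 31 members, Lce3a included, 14 were called at 2 weeks (12 higher, 2 lower) and 16 at 4 weeks (11 higher, 5 lower). Without the 2 mice that stood apart, 13 members (11 higher, 2 lower) and 19 members (14 higher, 5 lower) were called, against 15.6% and 16.9% of all genes. Over the 4 comparisons with saline, 10 members passed in none, 10 in 1 and 15 in 2.

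**Figure D1:**
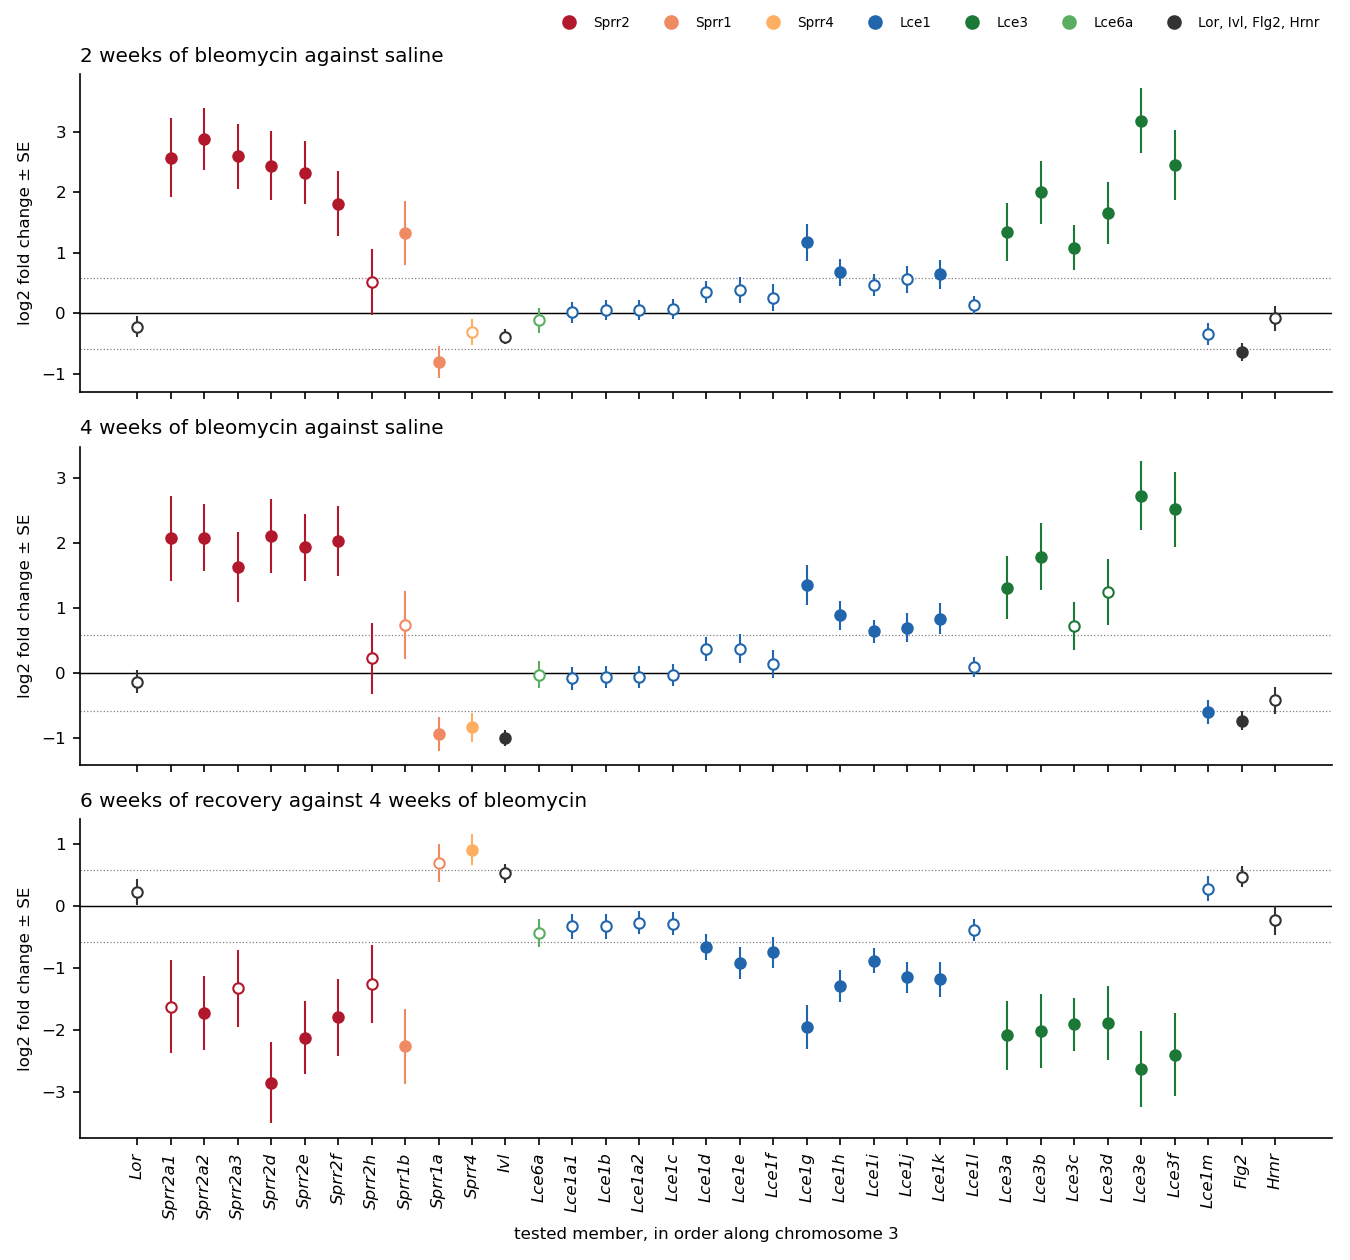
Log2 fold change with its standard error (y axis) of the 35 tested members in their order along chromosome 3 (x axis), for 2 and 4 weeks of bleomycin against saline and for 6 weeks of recovery against 4 weeks of bleomycin. Filled points are called genes, colours are families and dotted lines mark 0.585 in both directions. The Sprr2 and Lce3 genes sit highest after bleomycin, Lce1g to Lce1k form a lower peak, and in the recovery comparison the same families sit below 0.

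Loricrin, the bulk protein of the envelope, was not called in any of the 7 comparisons. Its normalized count had a median of 10545 in saline (lowest 7868, highest 18346), 9300.3 at 2 weeks (6048 to 20012), 10977 at 4 weeks (8042 to 11800), 11959 after 6 weeks of recovery (9946 to 15123) and 12499 after 10 weeks (5695 to 15762). The groups overlapped throughout. Its log2 fold change was -0.22 ± 0.18 (SE) at 2 weeks and -0.14 ± 0.18 at 4 weeks.

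Involucrin fell. Its median was 2058 in saline (1437 to 2705), 1621 at 2 weeks (1031 to 2197) and 957 at 4 weeks (836 to 1331), so that all 10 mice at 4 weeks lay below every saline mouse, where 5.27% of all tested genes were called with groups that did not overlap. The log2 fold change at 4 weeks was -1.01 ± 0.13 (SE, adjusted p = 1.43e-08), and at 2 weeks it was -0.38 ± 0.13 (adjusted p = 0.0143), short of the fold threshold. Ivl was the 1 member called between 4 and 2 weeks of bleomycin, at -0.63 ± 0.13 (adjusted p = 0.002), where 2.35% of all genes were called, 0.863% lower. That call is lost (0 members called) when mouse 5 or mouse 6 of the 2-week group is left out. After 6 and 10 weeks of recovery Ivl had medians of 1456 and 1617, below the saline median in 6 of 6 and 8 of 8 mice, and the log2 fold changes of -0.49 ± 0.15 (adjusted p = 0.0279) and -0.42 ± 0.13 (adjusted p = 0.0526) were not called.

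Of the S100-fused members, filaggrin 2 was lower during bleomycin. Flg2 had a median of 5600 in saline (3738 to 9593), 3708 at 2 weeks (2355 to 5817) and 3593 at 4 weeks (2594 to 5074), below the saline median in 9 of 10 and 10 of 10 mice with overlapping ranges. It fell by 0.64 ± 0.15 (SE) on the log2 scale at 2 weeks (adjusted p = 0.000553) and by 0.74 ± 0.15 at 4 weeks (adjusted p = 7.18e-05). Hornerin was called against saline at 10 weeks of recovery, with medians of 2709 in saline (1303 to 5242), 2622 at 2 weeks, 2063 at 4 weeks, 1808 after 6 weeks of recovery and 1198 after 10 weeks (887 to 2081). Its log2 fold change there was -1.12 ± 0.22 (adjusted p = 0.000952), and 5 of 8 mice lay below every saline mouse. Hrnr shares its locus with an antisense non-coding gene, and the strand setting of the counting is not given in the sources used here.

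Filaggrin itself could not be followed. Flg was listed at 0 in 35 of 44 mice and reached 3 reads in 1 mouse, whereas its neighbours Flg2 and Hrnr never fell below 2355 and 887. The table carries an older version of the Flg identifier than the annotation used for symbols, and 79.2% of the 50-base stretches of its transcript occur more than once within it (65.4% for Flg2 and 69.1% for Hrnr). Whether either has a part in the low values was not tested.

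**Figure D2:**
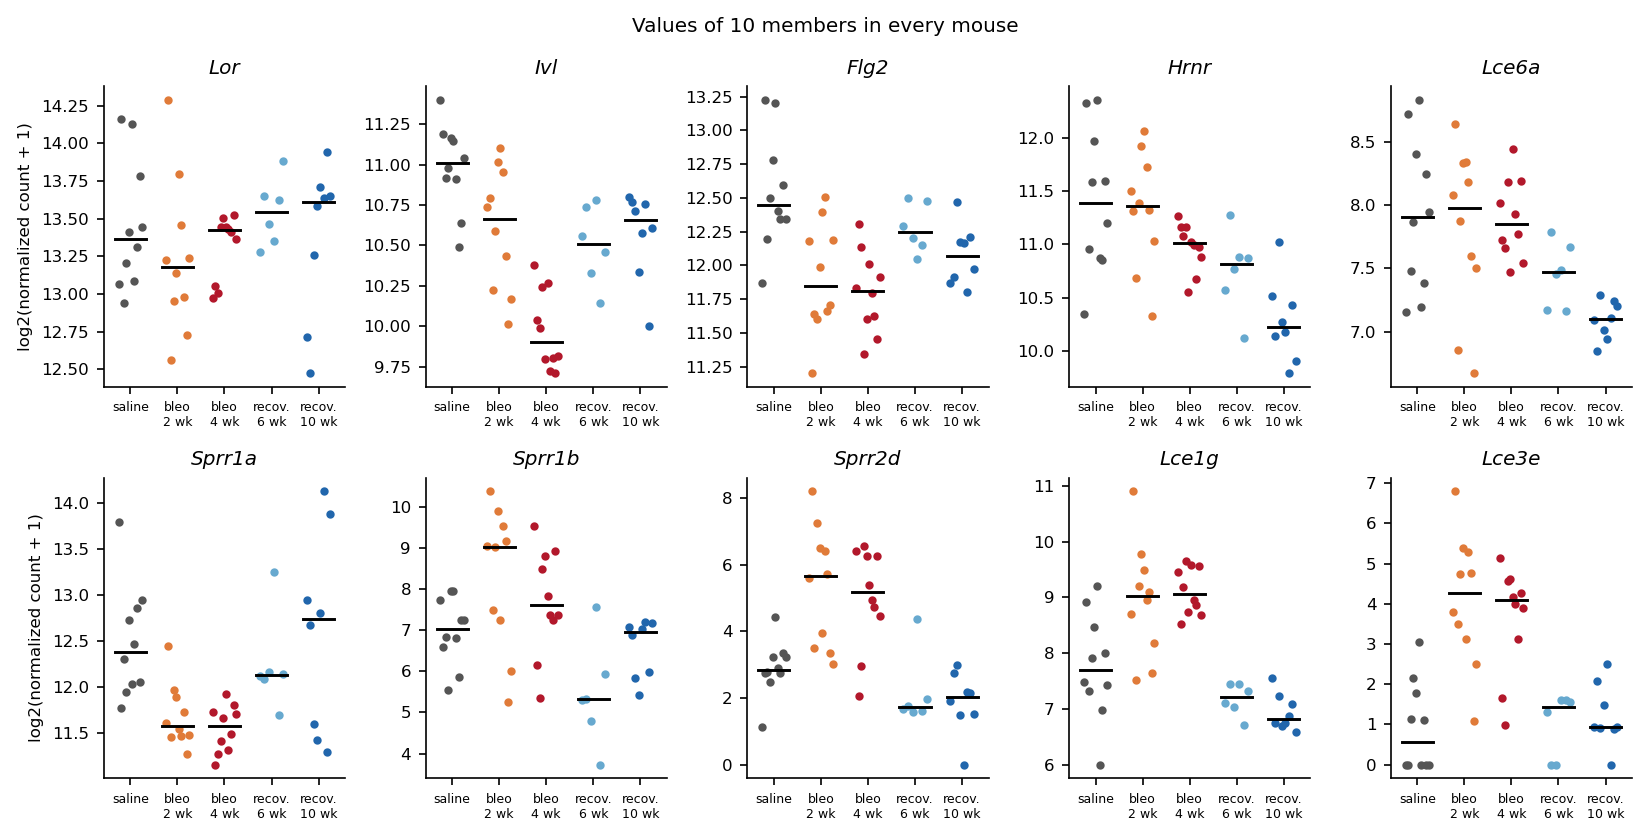
Log2(normalized count + 1) of 10 members (y axis) in each of the 44 mice (points), by group (x axis), with a bar at each group median; the y scale differs between panels. Ivl at 4 weeks lies below every saline mouse, Sprr2d and Lce3e rise in most bleomycin mice and are low again in recovery, and Hrnr and Lce6a are lowest after 10 weeks of recovery.

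The cross-bridging Sprr genes moved in different directions. Of the Sprr2 genes, Sprr2a1, Sprr2a2, Sprr2a3 and Sprr2d were called higher at 2 and 4 weeks, Sprr2h was not (0.52 ± 0.55 SE and 0.22 ± 0.55), 4 were under the filter, and Sprr2e and Sprr2f were called but had passed it only through the bleomycin groups. Sprr2a2, the most abundant, had a median of 692 in saline (355 to 8831), 7773 at 2 weeks (1178 to 38642) and 3488 at 4 weeks (826 to 12340). All 10 mice at each time lay above the saline median, and 4 and 1 of them above every saline mouse. The log2 fold changes were 2.88 ± 0.52 (adjusted p = 1.66e-05) and 2.08 ± 0.52 (adjusted p = 0.00122). Sprr2a1 and Sprr2a2 overlap on the same strand and share 96.3% and 96.5% of their 50-base stretches with another gene, and Sprr2a3 shares 61.1% of its own with Sprr2a1, so reads among the 3 could not be assigned with certainty. Summed, they changed by 2.85 ± 0.52 (adjusted p = 1.92e-05) and 2.06 ± 0.52 (adjusted p = 0.00138). Sprr2a2 also overlaps the pseudogene Gm5850 and the annotated gene Gm37087 on the opposite strand.

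Sprr2d, of which 4.27% of the 50-base stretches occur in another gene, changed in the same direction. Its median was 6.18 normalized counts in saline (1.19 to 20.6), 49.4 at 2 weeks (7.04 to 294) and 35.4 at 4 weeks (3.20 to 93.4). Above every saline mouse stood 6 of 10 mice at 2 weeks and 8 of 10 at 4 weeks, and the log2 fold changes were 2.44 ± 0.57 (SE, adjusted p = 0.000612) and 2.10 ± 0.57 (adjusted p = 0.00289). Sprr2e and Sprr2f, with saline medians of 1.24 and 1.04, rose by 2.33 ± 0.51 and 1.81 ± 0.54 at 2 weeks. At such low counts a fold on the log2(count + 1) scale understates the change.

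The 2 Sprr1 genes went opposite ways at 2 weeks. Sprr1b had a median of 131 in saline (45.6 to 247) and 520.4 at 2 weeks (37.5 to 1325), and rose by 1.33 ± 0.52 (SE, adjusted p = 0.0432). At 4 weeks its median was 196 (40.1 to 732) and the difference of 0.73 ± 0.52 did not pass (adjusted p = 0.287). The call at 2 weeks was lost without the 2 mice that stood apart (1.18, adjusted p = 0.0815). Sprr1a, one of the most abundant members, had a median of 5357 in saline (3502 to 14171), 3051 at 2 weeks (2469 to 5588) and 3062 at 4 weeks (2285 to 3900), with 7 and 8 of 10 mice below every saline mouse. It fell by 0.80 ± 0.26 on the log2 scale (adjusted p = 0.0131) and by 0.94 ± 0.26 (adjusted p = 0.00365). Sprr4, the remaining tested Sprr gene, fell by 0.84 ± 0.22 at 4 weeks (adjusted p = 0.00225), from a median of 208 (117 to 283) to 102 (60.6 to 155).

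The level of hair keratins moved with the groups. The 15 hair keratins measured here, structural proteins of growing hair follicles, were all called lower at 2 weeks (median log2 fold change -8.02) and at 4 weeks (-7.13). Their summed normalized count ranged from 2373 to 280980 in saline, 47.1 to 2171 at 2 weeks, 46.9 to 6430 at 4 weeks, 118 to 132743 after 6 weeks of recovery and 1514 to 212418 after 10 weeks. With the hair keratin level as a covariate, the difference of Sprr1a was 0.41 at 2 weeks (adjusted p = 0.43) and 0.11 at 4 weeks (adjusted p = 0.841), and neither passed. The fall of Ivl at 4 weeks kept its call in the same fit at -0.82 (adjusted p = 0.000545), as did that of Flg2 at 2 and 4 weeks (-1.05, adjusted p = 0.000282, and -1.10, adjusted p = 3.57e-05). Of all 18 members called at 2 weeks, 3 were still called with this covariate, and 5 of the 20 at 4 weeks. Calls also fell over all genes, from 16.7% to 10.5% at 2 weeks and from 17.9% to 12.4% at 4 weeks. Lost calls differed in size. At 2 weeks Sprr2d stood at 2.14 (2.44 without the covariate), Sprr1b at 2.13 (1.33), Lce3f at 2.12 (2.45) and Lce3b at 2.07 (2.00), with adjusted p of 0.0874, 0.0578, 0.0994 and 0.0674, whereas Sprr2a1 stood at 0.27 (2.57) and Lce1h at 0.22 (0.68). Lce3d (2.62) and Lce3e kept their calls. The hair keratin range at 2 weeks lay wholly below that of saline, so the hair keratin level and 2 weeks of bleomycin can hardly be told apart in these mice. At 4 weeks the ranges overlapped, but the median sum was 73.3 against 47180 in saline, so the 2 are hard to separate there as well.

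Of the Lce3 genes, Lce3a, Lce3c, Lce3d and Lce3f were called higher at 2 weeks and Lce3a and Lce3f at 4 weeks. Lce3b and Lce3e were called at both times, having passed the filter only through the bleomycin groups. Lce3a had passed it largely through them too. Lce3e had a median of 0.573 in saline (0 to 7.27), 19.3 at 2 weeks (1.14 to 111) and 16.0 at 4 weeks (0.978 to 34.2). In 8 of 10 mice at each time it stood above every saline mouse, and the log2 fold changes of 3.18 ± 0.53 (SE, adjusted p = 5.32e-06) and 2.73 ± 0.53 (adjusted p = 6.16e-05) were the largest among the tested members. Lce3f followed with 2.45 ± 0.58 and 2.52 ± 0.58, from a saline median of 3.10 to 30.9 and 29.9. Lce3c, the most abundant of the family, had medians of 26.6 in saline, 54.9 at 2 weeks and 51.1 at 4 weeks, and was called at 2 weeks (1.09 ± 0.37, adjusted p = 0.0169) and not at 4 weeks (0.72 ± 0.37, adjusted p = 0.122). Lce3c to Lce3f share 35.7% to 49.3% of their 50-base stretches with other genes, mostly with one another, so the split among them is uncertain. Without the 2 mice that stood apart, Lce3a (1.10, adjusted p = 0.0628) and Lce3c (0.73, adjusted p = 0.087) lost their calls at 2 weeks.

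The 14 Lce1 genes, which are the late envelope proteins of resting skin, had unlike fold changes along the chromosome. Lce1a1, Lce1b, Lce1a2 and Lce1c, the first 4 along the cluster, had log2 fold changes from -0.09 to 0.07 at 2 and 4 weeks. Lce1g to Lce1k, which lie 103.6 to 159.8 kb from the start of Lce1a1, had 0.47 to 1.18 at 2 weeks and 0.63 to 1.35 at 4 weeks, and all 5 were called at 4 weeks. At 2 weeks Lce1g, Lce1h and Lce1k were called, and the calls of Lce1h (0.43, adjusted p = 0.103) and Lce1k (0.41, adjusted p = 0.162) were lost without the 2 mice that stood apart. At 4 weeks Lce1i (0.55) and Lce1j (0.58) fell short of the fold threshold without them, and Lce1g, Lce1h and Lce1k kept their calls. Lce1g, named here after its values were seen, had a median of 209 in saline (63.1 to 587), 522 at 2 weeks (182 to 1917) and 537 at 4 weeks (365 to 809). Its log2 fold changes were 1.18 ± 0.31 (SE, adjusted p = 0.00208) and 1.35 ± 0.31 (adjusted p = 0.000465). Lce1m, at the far end and the most abundant Lce1 gene, went the other way, from a median of 5242 (3451 to 9569) to 3463 at 4 weeks (2524 to 6259), a fall of 0.61 ± 0.18 (adjusted p = 0.00656). Lce1m shares none of its 50-base stretches with another gene, whereas the other 13 share 9.12% to 27.1%. Lce6a, a single late envelope gene, lay at -0.12 ± 0.20 and -0.03 ± 0.20.

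**Figure D3:**
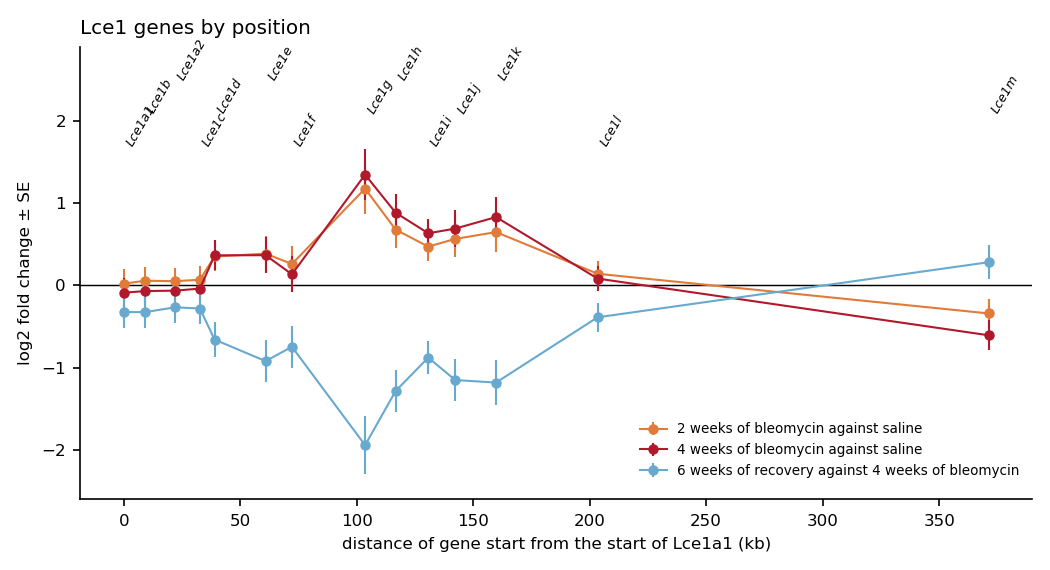
Log2 fold change with its standard error (y axis) of the 14 Lce1 genes against the distance of each gene's start from that of Lce1a1 in kb (x axis), for 3 comparisons; lines join neighbouring genes. The points after bleomycin stay near 0 for the first 4 genes, peak at Lce1g 103.6 kb away, and lie below 0 at Lce1m, while in the recovery comparison all but Lce1m lie below 0, with Lce1g the lowest.

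At 6 weeks of recovery against 4 weeks of bleomycin, 20 members were called, 1 higher and 19 lower, where 11.9% of all genes were called, 4.8% higher and 7.14% lower. The median of the 35 members was -1.15, which is pulled downward by the 4 that had passed the filter only through the bleomycin groups. Of the 20 called, 16 (1 higher, 15 lower) were among the other 31 members, Lce3a included. All 6 Lce3 genes were called lower, from -1.88 to -2.63, as were Sprr1b (-2.26 ± 0.60 SE, adjusted p = 0.00447) and 4 Sprr2 genes, led by Sprr2d at -2.85 ± 0.65 (adjusted p = 0.000994). Lce3b, Lce3e, Sprr2e and Sprr2f are among these and had passed the filter only through the bleomycin groups. They could hardly pass it without such a fall, and Lce3a had passed it largely through the same groups. Sprr2d had a median of 2.30 after 6 weeks of recovery (1.98 to 19.5). The 8 genes Lce1d to Lce1k were all called lower, with no overlap between the 6 and the 10 mice in any of them, where 6.04% of all genes were called with groups that did not overlap. Lce1g stood at 104 to 173 in recovery, all below the lowest mouse at 4 weeks of bleomycin (365), with a log2 fold change of -1.94 ± 0.35 (adjusted p = 4.63e-05). Sprr4 was the 1 member called higher, at 0.91 ± 0.26 (adjusted p = 0.0068), with a median of 192 in recovery (134 to 263). With the hair keratin level as a covariate 13 of the 20 kept their calls, and with the Krt5 and Krt14 level all 20 did.

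Against saline, the number of members called in recovery depended on the tool. At 6 weeks 0 of 35 were called by limma, where 5.04% of all genes were, with 7 at an unadjusted p below 0.05, all lower (24.8% of all genes in either direction). There, edgeR called 1 and DESeq2 called 2 (5.24% and 5.99% of all genes). The limma count there was 1 without saline mouse 1, saline mouse 8, mouse 2 or mouse 10 of the 2-week group or mouse 2 of the 6-week recovery group, 2 without mouse 4 of the latter, and 3 without the 2 mice that stood apart (4.55% of all genes). At 10 weeks 2 were called, both lower, where 3.05% of all genes were, 0.998% lower. At 10 weeks edgeR called 7, DESeq2 called 11, and limma with the Krt5 and Krt14 level as a covariate called 11. The shares of all genes called in these fits were 3.35%, 3.85% and 4.07%. The 2 called by limma were Hrnr (above) and Lce6a, which had a median of 239 in saline (142 to 455) and 136 at 10 weeks (114 to 156) and fell by 0.83 ± 0.21 (SE, adjusted p = 0.0144). At 10 weeks 18 members had an unadjusted p below 0.05, all lower, and so did 19.1% of all genes in either direction. The number called at 10 weeks was 6 without saline mouse 1, 6 without saline mouse 7, 5 without mouse 2 of the 2-week group and 8 without the 2 mice that stood apart (3.42% of all genes). The medians over the members were -0.33 and -0.44, and 27 and 29 of the 35 lay below 0. Between 10 and 6 weeks of recovery 0 members were called by limma, against 0.088% of all genes, with 4 at an unadjusted p below 0.05 (12% of all genes).

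The genes that make and process the envelope were counted from lists. The 3 transglutaminases that cross-link it had 0 calls by limma in every comparison with saline (1 and 2 at an unadjusted p below 0.05 at 2 and 4 weeks), and Tgm1, the main one, lay at -0.47 ± 0.13 (SE, adjusted p = 0.00295) and -0.58 ± 0.13 (adjusted p = 0.000273) at 2 and 4 weeks, under the fold threshold. Of 13 other envelope proteins tested, 4 were lower at 2 weeks and 5 at 4 weeks, and 0 higher, against 7.43% and 7.37% of all genes called lower. Cornulin (Crnn), Tchhl1 (-6.82 ± 1.00 and -6.47 ± 1.00) and Prr9 (-6.82 ± 0.95 and -6.23 ± 0.95) changed most, beside the hair keratins whose medians were -8.02 and -7.13, and Cnfn was at -0.64 and -0.92. The part of the hair follicle in these values was not tested. Crnn and Prr9 lie between the members on chromosome 3. Of the tested protein-coding non-members there, 2 of 8 (25%) were called at each time, against 16.7% and 17.9% of all genes. Prr9 fell from a saline median of 3042 (120 to 20826) to 15.7 and 18.9.

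Of 12 genes for the processing of filaggrin, 3 were lower at 2 weeks and 4 at 4 weeks (25% and 33.3%, against 16.7% and 17.9% of all genes called in either direction). Padi3, a peptidylarginine deiminase of hair follicles and epidermis, fell (log2 fold changes -6.69 ± 0.96 and -6.25 ± 0.96), as did Padi1 (-4.26 and -3.96) and the protease St14 (-0.67 and -0.64). Casp14, the caspase that acts on filaggrin, was lower at 4 weeks and in both recovery groups (-0.61 ± 0.23, -1.09 ± 0.27 and -0.99 ± 0.25). Bleomycin hydrolase (Blmh), which degrades both filaggrin peptides and bleomycin, was called lower at 6 weeks of recovery (-0.64 ± 0.15, adjusted p = 0.00388). Klk8 was called lower at 10 weeks (-0.64 ± 0.19). Of 14 lipid envelope genes, 2 were lower at 2 weeks and 3 at 4 weeks (14.3% and 21.4%, near the share of all genes called), among them Elovl4, which lengthens the fatty acids of barrier ceramides (-0.92 ± 0.13 and -1.19 ± 0.13), Cyp4f39 and, at 4 weeks, Alox12b (-0.80 ± 0.14). Of 20 transcription factors 10% and 15% were called, below the share of all genes. Fos (1.16 ± 0.20 and 1.09 ± 0.20) and Fosl1 (0.60 ± 0.25 and 1.00 ± 0.25) were higher at 2 and 4 weeks and Ovol1 was lower at 4 weeks (-0.67 ± 0.16).

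Keratin genes were followed in the same whole skin, so their values cannot be assigned to the epidermis alone. Of 9 epidermal keratins 0 were called at 2 weeks by limma (3 at an unadjusted p below 0.05), with Krt5, Krt14, Krt1 and Krt10 between -0.10 and 0.35, and at 4 weeks Krt2 was higher (1.79 ± 0.46 SE) and Krt77 (-0.81 ± 0.15) and Krt78 (-0.63 ± 0.14) lower. Of all genes, 16.7% and 17.9% were called at these times. None of the 9 was at 0 in every mouse, and their summed level ranged from 153216 to 328928 in saline, 189692 to 324561 at 2 weeks and 207169 to 282059 at 4 weeks. With the Krt5 and Krt14 level as a covariate, 12 of the 18 members called at 2 weeks and 16 of the 20 at 4 weeks kept their calls. Of 7 stress genes tested, 5 were higher at 2 weeks and 4 at 4 weeks, against 9.3% and 10.5% of all genes called higher. Krt6b rose by 6.42 ± 0.64 and 5.10 ± 0.64, Krt16 by 2.38 ± 0.47 and 1.69 ± 0.47, S100a9 by 4.08 ± 0.48 and 3.91 ± 0.48, S100a8 by 2.07 ± 0.51 and 2.03 ± 0.51, and Krt6a by 0.91 ± 0.36 at 2 weeks. Macrophage markers also differed, with 4 of 5 called higher at both times, against the same 9.3% and 10.5% of all genes. Their summed level was 7142 to 18892 in saline, 18369 to 35759 at 2 weeks and 16619 to 30899 at 4 weeks, and none was at 0 in every mouse. The part of these cells in the members' values was not tested.

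Pairs of genes were compared from mouse to mouse. Of 11 pairs examined, 6 were added after the values in the files were seen (the 4 with Flg2, and Sprr1a and Sprr2a2 with Krt25). Correlations were taken over the 44 mice with group means taken off (log2 scale, two-sided permutations within groups, adjusted over the 11). Sprr1b and Krt16 had Pearson r = 0.80 (Spearman rho 0.78) and Sprr1a and Krt6a r = 0.739 (rho 0.75), each with an adjusted p of 3.67e-05, which comes from the smallest value that the permutations can give (1e-05). When the 2 mice with the most extreme keratin levels were dropped, r was 0.76 and 0.71. For Sprr1b and Krt16, r was 0.09 in saline (rho 0.49), 0.96 and 0.95 at 2 and 4 weeks of bleomycin, and 0.86 and 0.61 at 6 and 10 weeks of recovery. Flg2 followed Krt10 (r = 0.768, rho 0.73, adjusted p = 3.67e-05, 0.71 without the 2 farthest) and Hrnr (r = 0.677, rho 0.61, adjusted p = 5.5e-05, 0.57 without them), with r = 0.31 in each pair at 4 weeks of bleomycin. Lor and Krt10 had r = 0.421 (rho 0.37, adjusted p = 0.0257, 0.34 without them), but r was 0.71 in saline and -0.62 at 4 weeks of bleomycin.

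Sprr1a and the inner root sheath keratin Krt25 had r = 0.504 (rho 0.57, adjusted p = 0.00077, 0.49 without the 2 farthest mice). By group, r was 0.72 in saline, 0.74 and 0.89 after 6 and 10 weeks of recovery, and 0.16 and -0.09 at 2 and 4 weeks of bleomycin, where Krt25 had medians of 2.27 and 6.28 against 10025 in saline. Sprr2a2 and Krt25 had r = -0.148 (rho -0.11, adjusted p = 0.34) and -0.66 within saline. Hrnr and Krt25 had r = -0.0929 (rho -0.20, adjusted p = 0.52), with -0.82 within saline and 0.72 after 6 weeks of recovery. Flg2 and Krt25 had r = -0.258 over all mice (rho -0.34, adjusted p = 0.112) and -0.91 within saline. Lor and Krt5 (r = 0.292, rho 0.23) and Flg2 and Lor (r = 0.284, rho 0.32) each had an adjusted p of 0.114, and for the latter r was 0.88 in saline and -0.68 at 4 weeks of bleomycin.

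**Figure D4:**
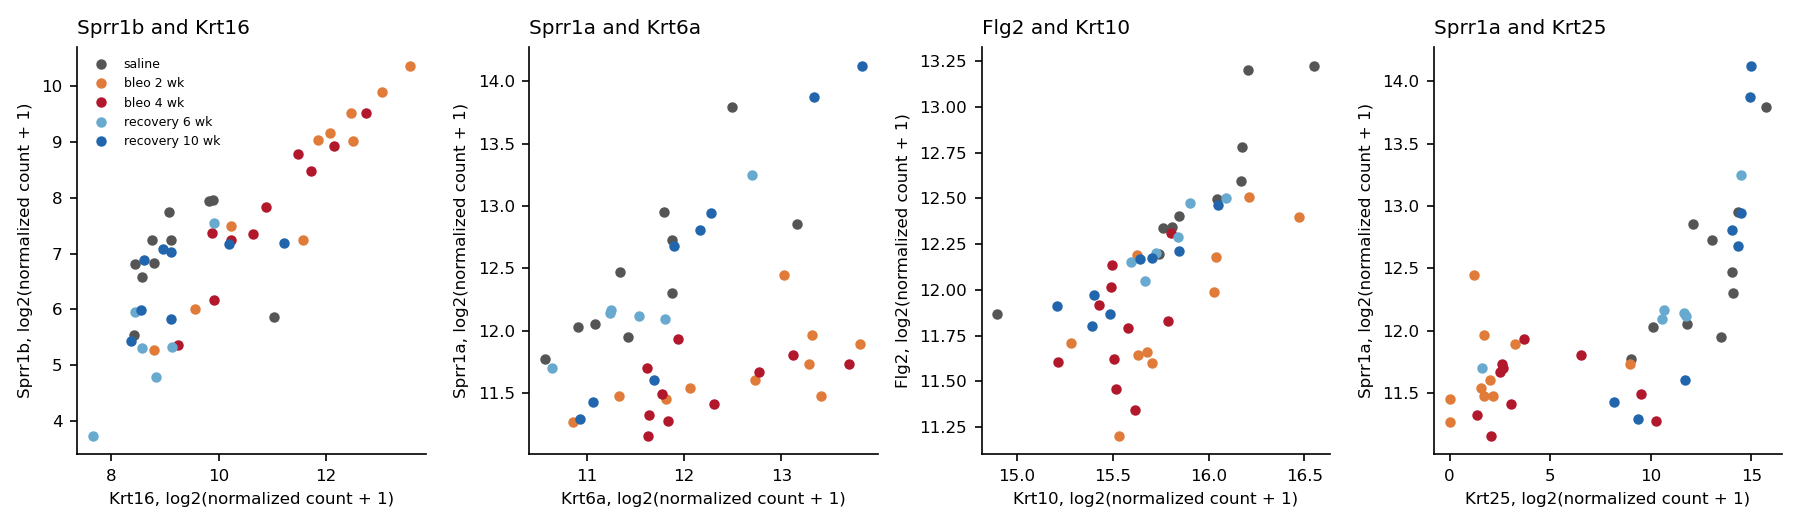
Log2(normalized count + 1) of a member (y axis) against that of a keratin (x axis) in the 44 mice (points, coloured by group) for Sprr1b and Krt16, Sprr1a and Krt6a, Flg2 and Krt10, and Sprr1a and Krt25. The highest Sprr1b and Krt16 values are those of bleomycin mice, and in the last panel the bleomycin mice sit at low Krt25 while the highest Sprr1a value (17875) is that of a mouse after 10 weeks of recovery.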

How the data were processed

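RNA from the back skin of 44 mice was sequenced as stranded poly(A) libraries with 50-base paired reads. Per the labels and the study's methods, the authors aligned reads to mm10 with STAR 2.4.0 and scaled gene counts with DESeq2 1.12.3. How reads were counted, whether by strand, and with which annotation is not given in the sources used here. The deposited signal values are counts divided by 1 size factor per mouse. Whole reads could be recovered from 100% of the values of each mouse (within 0.01). Groups came from the labels.

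Genes with a mean above 3 normalized counts were fitted as log2(normalized count + 1) over all 44 mice with limma 3.58.1 (empirical Bayes with a trend, R 4.3.3), and p-values were adjusted by Benjamini-Hochberg over all 17037 genes. Fold changes are on that log2 scale. Nothing in the sources ties replicates beyond separate mice of a group. Alternatives were edgeR 4.0.16 (quasi-likelihood) and DESeq2 1.42.0 on recovered reads, other pseudocounts, filters and scalings, covariates, and leaving out mice. The fit was tested on simulated counts with 3-fold changes in 200 genes of higher mean and low dispersion. There limma recovered 200 of them, with 5 false calls. Members with low counts or a wide spread were outside that setting. Correlations used 100000 permutations within groups (scipy 1.17.1, numpy 2.4.6, pandas 2.3.3, Python 3.11.15), and plots matplotlib 3.10.9. Sequence sharing was counted over 50-base stretches of transcripts.

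The members and gene lists were chosen with earlier results of these data known. Members named by rule were the single genes (Lor, Ivl, Flg, Flg2, Hrnr, Lce6a), Sprr1a, Sprr1b, Sprr2a1 to Sprr2a3, Sprr2d, Sprr4, Lce1m, Lce3c, Lce3e and Lce3f. Other members were named after their values were seen. The lists covered cross-linking enzymes, other envelope proteins, filaggrin processing, lipid envelope, transcription factors, epidermal keratins, stress genes, hair keratins, macrophage, fat, fibroblast and muscle.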

Additional observations from a re-analysis of the deposited data

Results flagged for a closer look

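In 80 sets of 1 named gene in 1 group, 5 held a mouse far from the rest of its group, and chance gives about 1 in 20. Saline mouse 6 had 207 normalized counts of Sprr2a3 (group median 24.5) and 23.0 of Lce3f (3.10). Mouse 4 after 6 weeks of recovery had 19.5 of Sprr2d (2.30) and 9701 of Sprr1a (4475). Mouse 5 after 10 weeks of recovery had 47.0 of Lce3c (18.1). Between times, 1 member differed between 4 and 2 weeks of bleomycin (Ivl), and 20 differed between 4 weeks of bleomycin and 6 weeks of recovery, each by the limma test of that difference.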

How the results depend on the processing

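At 2 and 4 weeks against saline, the fit with the hair keratin covariate called 6 members (3 higher, 3 lower) and 7 (3 higher, 4 lower), against 10.5% and 12.4% of all genes. Of these members 3 and 5 were among those called without it, and under it the difference of Sprr1a turned to 0.41 and 0.11. For 6 weeks of recovery, where 0 members were called, the count was 1 with no fold threshold, 1 with only the groups compared, 1 by edgeR, 2 by DESeq2, 1 with the hair keratin covariate, 3 without saline mouse 1 and 2-week mouse 2, and 7 with the Krt5 and Krt14 covariate. In the same order, 9.08%, 3.99%, 5.24%, 5.99%, 3.4%, 4.55% and 5.8% of all genes were called. For 10 weeks the count was 7 by edgeR (3.35% of all genes), 11 by DESeq2 (3.85%), 8 without these 2 mice (3.42%) and 11 with the Krt5 and Krt14 covariate (4.07%). Between 10 and 6 weeks of recovery it was 2 with only the groups compared (0.329% of all genes). A replicate block gave 5 members at 6 weeks and 5 at 10 weeks of recovery (6.63% and 3.77% of all genes). The mice share only a number, since same-numbered mice had a median correlation of -0.0022 over 78 pairs and 4 mice correlated best with their own number. Flg2 and Lor had r = 0.49 without the 2 mice (adjusted p = 0.00286), and Flg2 and Krt25 a Spearman rho of -0.34 (adjusted p = 0.0379). The causes were not tested. Leaving out 1 mouse gave 13 to 19 members at 2 weeks, 18 to 21 at 4 weeks, 0 to 2 and 2 to 6 at 6 and 10 weeks of recovery, 0 to 1 between 4 and 2 weeks, 16 to 21 between 4 weeks of bleomycin and 6 weeks of recovery, and 0 to 0 between 10 and 6 weeks. Of 61 calls of single members, edgeR kept 58, DESeq2 58, trimmed-mean rescaling 61, quantile normalization 59, the fit without the 2 mice 54, the Krt5 and Krt14 covariate 51 and the hair keratin covariate 24, with 2 turned. Saline medians under 10 normalized counts limit the folds of Sprr2d, Sprr2e, Sprr2f, Lce3a, Lce3b, Lce3d, Lce3e and Lce3f. Flg and Rptn pairs could not be computed.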

Other observations

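Other cells of the skin moved with the groups too. Of 6 fat genes 2 were lower at 2 weeks and 3 at 4 weeks, against 7.43% and 7.37% of all genes. The adipocyte hormone leptin (Lep) stood at -2.43 ± 0.28 (SE) and -1.68 ± 0.28. At 6 weeks of recovery against 4 weeks of bleomycin 3 fat genes were higher, against 4.8% of all genes. Of 6 fibroblast genes 3 were lower at 2 weeks, against 7.43% of all genes. Pdgfra, a receptor that marks fibroblasts, was lower in all 4 comparisons with saline (-1.24, -1.08, -1.02 and -0.93). The collagen genes Col1a1 and Col1a2 were higher at 4 than at 2 weeks (1.01 ± 0.24 and 0.93 ± 0.23). The muscle myosin Myh1 was higher at 4 weeks (0.69 ± 0.26) and in both recovery groups (1.14 ± 0.30 and 0.86 ± 0.27). The stress gene Il1f9 was lower at 10 weeks of recovery (-0.79 ± 0.21).

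Among the members under the filter, fitting without it called Sprr2k higher at 2 and 4 weeks (1.08 and 0.78) and Sprr2b higher at 4 weeks (1.03). Of the other letters searched on both strands, CCACCC was in 22.5% of member windows and 31.5% of all promoters, TGACNNNGC in 20% and 12.4%, and AACCGGTT in 0 member windows and 0.146% of all.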
